A study of Mus musculus with 12 samples.

Results

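The genes described here are 38 genes that hepatocytes express for secreted proteins of the blood, 18 of the complement system and 20 of the coagulation and fibrinolysis systems. They are listed by name, with no measured value in the rule, and their levels were compared between livers of wildtype (WT) mice and of mice with a hepatocyte-specific knockout of *Marchf6* (*Marchf6* LKO). All 38 were found among the 54232 genes of the count table. All 38 were also among the 17509 genes kept for testing, and the least covered of them, *Cfb*, had at least 35 reads in every liver.

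Complement is a cascade of serum proteins that tags microbes and damaged cells. It starts from antibody-bound C1, from mannose-binding lectins or by the alternative route through factor B, converges on C3 and C5, and ends in a pore built from C6 to C9. Coagulation is a second cascade of serine proteases, most of them made in hepatocytes, which ends in thrombin and in the fibrin network that thrombin makes from fibrinogen, and plasmin later dissolves that network. Most of these proteins enter the endoplasmic reticulum of hepatocytes for export, and several of them, fibrinogen and C3 among them, are acute-phase proteins whose mRNA rises in inflammation.

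Total liver of 6 WT and 6 LKO mice was sequenced as mRNA, with 1 library per mouse. All mice were C57Bl/6J males of 10 weeks on standard chow that had gone without food for 4 h. Both groups carried *Marchf6* fl/fl, in which an exon of *Marchf6*, an E3 ubiquitin ligase of the endoplasmic reticulum, is flanked by loxP sites. The LKO mice in addition carried AlbuminCre+, a Cre recombinase under the albumin promoter that is active in hepatocytes, and the WT littermates were AlbuminCre-, so other liver cells of the LKO mice should keep the gene.

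Between 14860414 and 22111926 reads per liver fell on genes. Levels are given as normalized CPM, the reads of a gene for every 1000000 reads of its library after scaling by the trimmed mean of M-values, and ± marks the SD over the 6 livers of a group. Log2 fold changes are LKO over WT, with the standard error (SE) of edgeR's quasi-likelihood fit and p-values adjusted over all genes tested. The count over the whole *Marchf6* gene, which includes exons that the deletion leaves, was 241 ± 8.36 in WT and 226 ± 16.5 in LKO livers and did not separate the groups. By their names the WT libraries all came before the LKO libraries in number, and the order of the libraries and the genotype cannot be told apart.

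Most complement and coagulation genes lay slightly lower in LKO livers. Of the 38 genes, 36 had a negative log2 fold change, with a median of −0.15, whereas 50.0% of all genes tested were lower and their median was 0.00015. Among the 18 complement genes 17 were lower, with a median log2 fold change of −0.20, which is 0.872 of the WT level. Among the 20 coagulation genes 19 were lower, with a median of −0.10, or 0.932 of the WT level. *Mbl2* and *Kng2* were the exceptions, and with upper-quartile scaling in place of the trimmed mean *Masp1* and *Fgg* also lay just above 0 (0.00036 and 0.0011). The difference between the complement and the coagulation genes was not tested.

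None of these differences passed the threshold for a single gene in the main test. With edgeR, 0 of the 38 genes had an adjusted p under 0.05, against 0.428% of all genes tested in either direction. At an unadjusted p under 0.05 there were 13 of them, 8 complement and 5 coagulation genes, all lower in LKO livers. The background for that count is 5.36% of all genes for lower levels, and 6.33% for higher levels, where 0 of the 38 lay. The share for lower levels was larger among highly expressed genes, as given below. DESeq2 called 6 of the 38 at an adjusted p under 0.05, namely *C1s1*, *C3*, *C4bp*, *F5*, *F9* and *F11*, all lower, against 1.13% of its genes called lower. The limma voom test called 0 of the 38.

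In *C1s1*, *C3*, *C4bp*, *F5* and *F9* every LKO liver lay below every WT liver. These are 5 of 38 genes, and 0.554% of all genes tested had groups apart in that direction. That share, too, was larger among highly expressed genes, as given below. The plot of fold changes shows the genes by role.

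**Figure D1:**
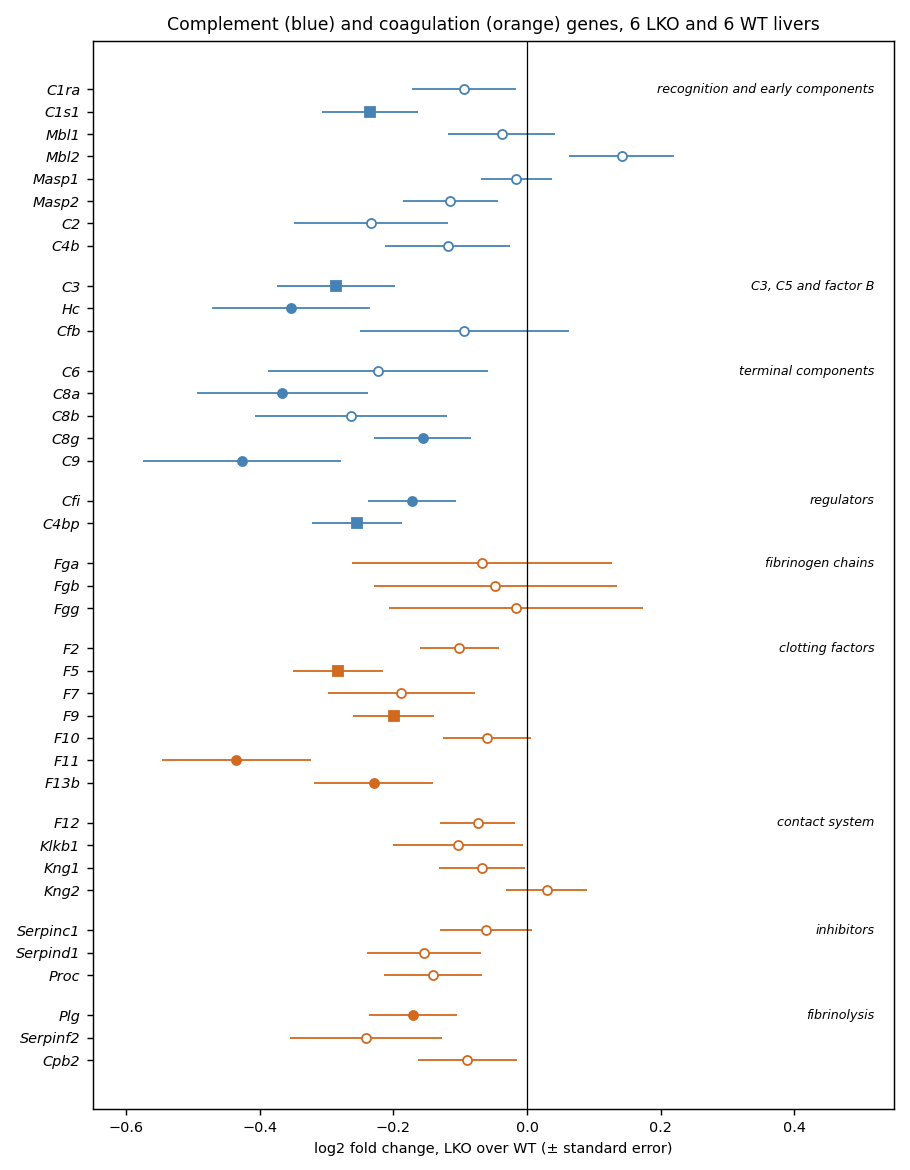
Log2 fold change (LKO over WT, x axis) with its standard error for each of the 38 genes, ordered by role, complement in blue and coagulation in orange. Filled symbols have an unadjusted p under 0.05, squares mark the 5 genes whose groups do not overlap, and 36 of the 38 symbols lie left of 0.

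Highly expressed genes as a whole were also somewhat lower. Of the 1380 genes with at least 100 normalized CPM on average, 66.2% were lower in LKO livers, with a median log2 fold change of −0.06. The 16 complement genes at that level had a median of −0.20, and the 19 coagulation genes a median of −0.10. At an unadjusted p under 0.05 in edgeR, 212 of the 1380 genes were lower and 70 higher. Of the 16 complement genes 8 were lower and 0 higher at that threshold, and of the 19 coagulation genes 5 and 0. Every LKO liver lay below every WT liver in 26 of the 1380 genes, 3 of the 16 and 2 of the 19. This comparison with highly expressed genes was chosen after the values were seen. Whether the abundance of the members has a part in their lower levels was not tested.

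In total liver, fewer hepatocytes and less mRNA per hepatocyte cannot be told apart. Of 7 hepatocyte marker genes tested, 6 were lower, and albumin (*Alb*) had a log2 fold change of −0.18, with 76045 ± 7051 normalized CPM in WT and 66947 ± 2144 in LKO livers. The summed hepatocyte markers lay between 101671 and 119422 in WT and between 91315 and 101468 in LKO livers. All 8 Kupffer cell markers were higher and 7 of them had an unadjusted p under 0.05, with sums of 101 to 132 in WT and 128 to 220 in LKO livers. All 8 stellate cell markers were higher (sums of 200 to 304 and 246 to 343), as were 7 of 8 endothelial markers (230 to 306 and 250 to 299). Of the cholangiocyte markers 4 of 6 were higher (37.5 to 63.8 and 34.5 to 130), of the platelet and blood cell markers 6 of 7 (74.6 to 85.2 and 64.1 to 113), and of the B-cell markers 5 of 6. The exception among the latter, the immunoglobulin chain *Ighm*, was the 1 marker that passed the edgeR test and fell by 1.78 on the log2 scale (adjusted p = 4.06e-06 by edgeR), and it set the sum of that list, 15.1 to 23.6 in WT and 6.16 to 8.20 in LKO livers. No marker was without reads in every liver. The part of these shifts in the levels of complement and coagulation genes was not tested.

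The sum over the 18 complement genes was 14696, 16556 and 17932 normalized CPM in WT livers (lowest, median and highest) and 11798, 13884 and 15473 in LKO livers, and all 6 LKO livers lay below the WT mean. The 20 coagulation genes together had 28662, 32066 and 44994 in WT and 26672, 32262 and 38163 in LKO livers, with 3 of 6 LKO livers below the WT mean. Without the 3 fibrinogen genes, which made the largest part of that sum, the range was 13412 to 14339 in WT and 11490 to 13694 in LKO livers, and all 6 LKO livers were below the WT mean. The groups overlapped in each of these sums. The 38 genes took 4.13% to 5.95% of the reads of a liver.

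Per length of the principal transcript, the fibrinogen genes were the most abundant of the 38. *Fga* had 3202 normalized CPM per kb in WT livers, *Fgg* 3035 and *Fgb* 1801. They were followed by *C3* with 1591, plasminogen (*Plg*) with 1109, kininogen 1 (*Kng1*) with 1047 and prothrombin (*F2*) with 878. *C3* was thus the most abundant complement mRNA per length, ahead of *C9* with 344 and *Cfi* with 316. At the lower end stood *Masp1* with 42.8, *C2* with 17.2 and *Cfb* with 1.44 normalized CPM per kb.

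The values of *C2* and *Cfb* are uncertain. On mouse chromosome 17 the annotated readthrough gene *Gm20547* covers 79.5% of the exon bases of *Cfb* and 42.8% of those of *C2* on the same strand and has 0 reads itself. *Cfb* had 804 reads over the 12 livers together and *C2* 8695. Genes with near-identical copies or annotated overlaps share 50-base windows of their principal transcript with another gene, namely *C1ra* (50.8% of windows, mostly with *C1rb*), *C1s1* (24.3%, *C1s2*), *C4b* (35.2%, *C4a*), *Klkb1* (42.7%, *Gm45753*), *Kng1* (20%) and *Kng2* (18.2%). *Masp2*, *Serpinc1* and *Plg* overlap genes of the opposite strand over 54.9%, 34.4% and 11.3% of their exon bases, and the strand setting of the counting is not given in the sources used here.

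Among the recognition and early components 7 of 8 genes were lower, with a median log2 fold change of −0.10. *C1s1*, on chromosome 6, encodes the C1s protease that cleaves C4 and C2. It had 347, 378 and 388 normalized CPM in WT livers (lowest, median and highest) and 256, 326 and 342 in LKO livers. The groups did not overlap, and the log2 fold change was −0.23 (SE 0.071, unadjusted p = 0.00513, adjusted p = 0.193 by edgeR and 0.0481 by DESeq2). *C1ra*, which lies next to *C1s1* and encodes its partner protease C1r, had a log2 fold change of −0.09 and overlapping groups.

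The other early components overlapped between the groups. The mannose-binding lectin genes, which recognize microbial sugars, had log2 fold changes of −0.04 (*Mbl1*) and 0.14 (*Mbl2*), and 5 of 6 LKO livers were above the WT mean of *Mbl2*. The genes of the lectin-associated proteases had values of −0.02 (*Masp1*) and −0.11 (*Masp2*). *C2* and *C4b*, the components from which the classical C3 convertase is made, had log2 fold changes of −0.23 (45.4 ± 6.71 in WT and 38.6 ± 6.05 normalized CPM in LKO livers) and −0.12 (1341 ± 178 and 1235 ± 121).

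*C3*, the component on which all routes converge, had 7603, 8037 and 8862 normalized CPM in WT livers and 5328, 7042 and 7318 in LKO livers. The groups did not overlap, and the mean of the LKO group was 18.0% lower by the fitted fold change. The log2 fold change was −0.29 (SE 0.088, unadjusted p = 0.00569, adjusted p = 0.203 by edgeR and 0.0391 by DESeq2). *Hc*, which encodes C5, the source of the membrane attack pore, had 1004, 1358 and 1535 in WT and 862, 1023 and 1326 in LKO livers. These groups overlapped although all 6 LKO livers were below the WT mean, with a log2 fold change of −0.35 (SE 0.119, unadjusted p = 0.00950, adjusted p = 0.239 by edgeR). *Cfb*, the protease of the alternative route, had a log2 fold change of −0.09 at the low read number given above.

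All 5 terminal components, which build the pore, were lower, with a median log2 fold change of −0.26. *C9*, the subunit that polymerizes into the pore, had 446, 745 and 787 normalized CPM in WT livers and 368, 542 and 650 in LKO livers. The log2 fold change was −0.43 (SE 0.148, unadjusted p = 0.0116, adjusted p = 0.256 by edgeR), and the groups overlapped because WT replicate 3, at 446, stood below 5 of 6 LKO livers. *C8a*, the alpha chain of C8, had 637, 1040 and 1139 in WT and 622, 765 and 904 in LKO livers. Here too the lowest WT liver was replicate 3, and the log2 fold change was −0.37 (SE 0.128, unadjusted p = 0.0120, adjusted p = 0.261 by edgeR). Without WT replicate 3 the log2 fold change of *C8a* was −0.47 with an adjusted p of 0.0282 by edgeR, the 1 call among the 38 genes in the 12 fits that each left out a liver.

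WT replicate 3 was also the lowest WT liver for *C6* and *C8b*. *C8b*, which lies beside *C8a* on chromosome 4 in the opposite direction, had a log2 fold change of −0.26, and *C6* on chromosome 15 one of −0.22, both with overlapping groups. *C8g*, the gamma chain of C8 and no homolog of the other chains, had 248, 301 and 314 in WT and 243, 262 and 298 normalized CPM in LKO livers. Its log2 fold change was −0.16 (SE 0.073, unadjusted p = 0.0492, adjusted p = 0.426 by edgeR), and the groups overlapped.

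Both soluble regulators were lower. *C4bp* encodes the alpha chain of C4b-binding protein, a cofactor for the inactivation of C4b. It had 673, 694 and 810 normalized CPM in WT livers and 535, 608 and 649 in LKO livers. The groups did not overlap, and the log2 fold change was −0.25 (SE 0.068, unadjusted p = 0.00193, adjusted p = 0.128 by edgeR and 0.00828 by DESeq2). *Cfi*, the protease that inactivates C3b and C4b, had 602, 660 and 701 in WT and 523, 584 and 635 in LKO livers. All 6 LKO livers were below the WT mean of *Cfi* while the groups overlapped, with a log2 fold change of −0.17 (SE 0.066, unadjusted p = 0.0197, adjusted p = 0.312 by edgeR).

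**Figure D2:**
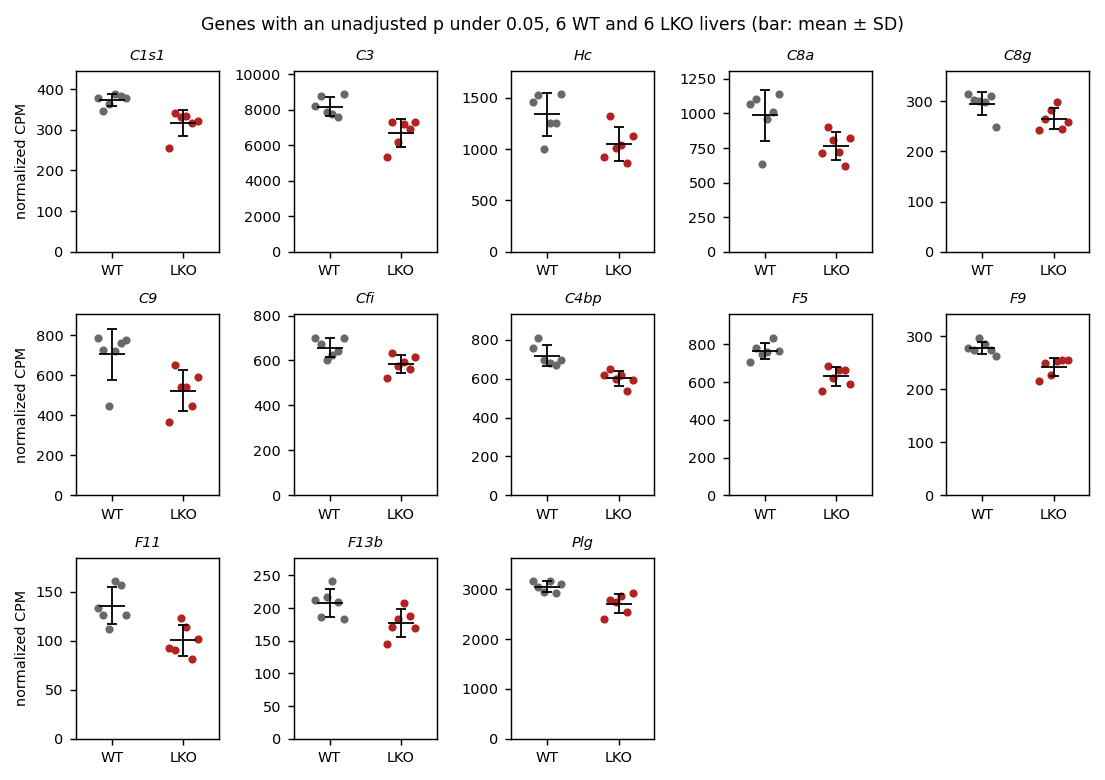
Normalized CPM (y axis, from 0) in each WT (grey) and LKO (red) liver for the 13 genes with an unadjusted p under 0.05, where each point is a liver and bars give the mean and SD. The LKO points lie entirely below the WT points for *C1s1*, *C3*, *C4bp*, *F5* and *F9*, and single WT livers at 446 and 637 reach into the LKO range of *C9* and *C8a*.

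Among the clotting factors all 7 genes were lower, with a median log2 fold change of −0.20. *F5* encodes factor V, the cofactor of the protease that activates prothrombin. It had 707, 764 and 835 normalized CPM in WT livers and 554, 643 and 684 in LKO livers. The groups did not overlap, and its log2 fold change of −0.28 (SE 0.068, unadjusted p = 0.000819, adjusted p = 0.0878 by edgeR and 0.00219 by DESeq2) had the lowest p-value of the 38 genes in both tests.

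*F9*, the X-linked gene of the factor missing in haemophilia B, had 263, 276 and 297 in WT and 216, 252 and 255 normalized CPM in LKO livers. The groups did not overlap, with a log2 fold change of −0.20 (SE 0.061, unadjusted p = 0.00498, adjusted p = 0.192 by edgeR and 0.0272 by DESeq2). *F11*, the protease that activates factor IX, had 112, 130 and 160 in WT and 80.8, 97.2 and 123 in LKO livers. This was the lowest log2 fold change of the 38 genes at −0.44 (SE 0.111, unadjusted p = 0.00143, adjusted p = 0.114 by edgeR and 0.0194 by DESeq2), although the groups overlapped. *F13b*, the carrier subunit of the fibrin cross-linking factor XIII, had 184, 211 and 241 in WT and 145, 177 and 208 in LKO livers. Its groups overlapped, with a log2 fold change of −0.23 (SE 0.089, unadjusted p = 0.0213, adjusted p = 0.322 by edgeR).

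Prothrombin, factor VII and factor X differed less or varied more. *F2* had 1658, 1766 and 1809 normalized CPM in WT livers and 1486, 1655 and 1716 in LKO livers, and overlapping groups. Its log2 fold change was −0.10 (SE 0.059, unadjusted p = 0.108, adjusted p = 0.536 by edgeR). *F7* and *F10*, neighbours on chromosome 8, had log2 fold changes of −0.19 and −0.06, and the lowest LKO value of *F7* was 61.4 in replicate 1 against 91.8 in the lowest WT liver.

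In the contact system, which starts clotting on charged surfaces and releases bradykinin, 3 of 4 genes were lower, with a median log2 fold change of −0.07. *Klkb1*, the gene of plasma prekallikrein, had 220, 259 and 305 normalized CPM in WT livers and 212, 242 and 286 in LKO livers. The groups overlapped over most of their range, and the log2 fold change was −0.10 (SE 0.097, adjusted p = 0.732 by edgeR). *Klkb1* is the neighbour of *F11* on chromosome 8 and descends from a common ancestral gene with it. *F12* (−0.07), *Kng1* (−0.07) and *Kng2* (0.03), the genes of factor XII and of the kininogens, completed this group.

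The inhibitors of clotting proteases were all lower by small amounts. *Serpinc1*, the gene of antithrombin, had 1988, 2174 and 2283 in WT and 1830, 2059 and 2309 normalized CPM in LKO livers, so that the highest value was from an LKO liver. Its log2 fold change was −0.06 (SE 0.069, adjusted p = 0.784 by edgeR). *Serpind1*, the gene of heparin cofactor II, had 482, 536 and 586 in WT and 392, 483 and 549 in LKO livers. The groups overlapped, with a log2 fold change of −0.15 (SE 0.085, adjusted p = 0.509 by edgeR), and *Proc*, the gene of protein C, had one of −0.14.

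In fibrinolysis all 3 genes were lower. *Plg*, the gene of the plasmin precursor, had 2925, 3074 and 3161 normalized CPM in WT livers and 2411, 2770 and 2929 in LKO livers. The groups touched, since the highest LKO liver exceeded the lowest WT liver by a few CPM, and the log2 fold change was −0.17 (SE 0.066, unadjusted p = 0.0208, adjusted p = 0.320 by edgeR). *Serpinf2*, the gene of the plasmin inhibitor alpha-2-antiplasmin, had 726, 826 and 1083 in WT and 547, 739 and 848 in LKO livers. Its groups overlapped, with a log2 fold change of −0.24 (SE 0.114, unadjusted p = 0.0513, adjusted p = 0.429 by edgeR). *Cpb2*, which encodes the carboxypeptidase that protects fibrin from lysis, had a log2 fold change of −0.09.

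The 3 fibrinogen chain genes behaved as a unit that varied strongly among mice of each genotype. *Fga*, *Fgb* and *Fgg* lie within 1 cluster on chromosome 3, and their proteins assemble in equal numbers into fibrinogen. The 250 bases before the RefSeq start of each gene are shown because these genes moved together from liver to liver, and for *Fga* the last 77 of them are left out, since they lie inside the gene as GENCODE annotates it. They are RefSeq sequences of GRCm38.p6, written 5′ to 3′ in the direction of transcription, with the letters CTGGGA in capitals, which are the core of an element described for the interleukin-6 response of fibrinogen genes. The windows are chr3:83025903-83026075 on the plus strand for *Fga*, chr3:83049864-83050113 on the minus strand for *Fgb* and chr3:83007474-83007723 on the plus strand for *Fgg*.
Fga: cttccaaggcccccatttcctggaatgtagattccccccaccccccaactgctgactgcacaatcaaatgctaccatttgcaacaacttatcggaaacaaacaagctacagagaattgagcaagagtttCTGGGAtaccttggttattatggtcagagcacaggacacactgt
Fgb: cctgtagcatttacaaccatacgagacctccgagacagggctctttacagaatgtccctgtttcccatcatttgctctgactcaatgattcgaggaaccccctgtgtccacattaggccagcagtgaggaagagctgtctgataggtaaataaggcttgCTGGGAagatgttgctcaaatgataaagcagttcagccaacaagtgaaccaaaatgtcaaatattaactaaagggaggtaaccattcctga
Fgg: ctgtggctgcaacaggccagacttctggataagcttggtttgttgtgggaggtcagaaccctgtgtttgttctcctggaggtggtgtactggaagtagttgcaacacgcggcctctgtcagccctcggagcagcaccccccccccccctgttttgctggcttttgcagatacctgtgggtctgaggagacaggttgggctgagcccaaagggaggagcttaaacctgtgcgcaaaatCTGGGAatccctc

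CTGGGA was found on the coding strand at bases −121 to −116 of *Fga*, −91 to −86 of *Fgb* and −13 to −8 of *Fgg*, counted back from the RefSeq start. Both strands were searched. The letters occur in 26.8% of the 27025 promoter windows of the same length and in 13 of the 30 windows found for the 38 genes (43.3%), and the other 8 genes had no window in the table. The spaced palindrome TTCNNNGAA, to which STAT factors can bind, occurs in 7.18% of all windows and in 5 of these 30, *C8a*, *F9*, *Fga*, *Fgb* and *Masp2*. The 2 motifs overlap in *F9* and in *Masp2*. Both motifs were chosen after the values were seen, and a match describes letters only.

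*Fga* had 6056, 7471 and 12770.5 normalized CPM in WT livers and 5793, 7625 and 10021 in LKO livers. *Fgb* had 5084, 6226 and 10091 in WT and 5157, 6649 and 8475 in LKO livers. *Fgg* had 3663, 4558 and 7794 in WT and 3673, 4962 and 6566 in LKO livers. The groups overlapped almost completely, and 3 of 6 LKO livers were above the WT mean of each gene. The log2 fold changes were −0.07 for *Fga* (SE 0.195, adjusted p = 0.937 by edgeR), −0.05 for *Fgb* (SE 0.182, adjusted p = 0.953 by edgeR) and −0.02 for *Fgg* (SE 0.190, adjusted p = 0.986 by edgeR), and the sign of each turned when WT replicate 2, the liver with the highest levels, was left out (0.10, 0.09 and 0.14). The CV among WT livers was 29.3% to 32.0%.

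The ratios between the chains were nearly constant. *Fgb* had 0.778 to 0.890 reads for each read of *Fga* over the 12 livers, a 1.14-fold range, while *Fga* itself ranged over 2.20-fold. For *Fgg* the ratio ran from 0.590 to 0.686, a 1.16-fold range. The ratios did not pass the test between genotypes (exact permutation p = 0.645 and 0.145, adjusted over 7 ratios 0.645 and 0.269, two-sided).

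**Figure D3:**
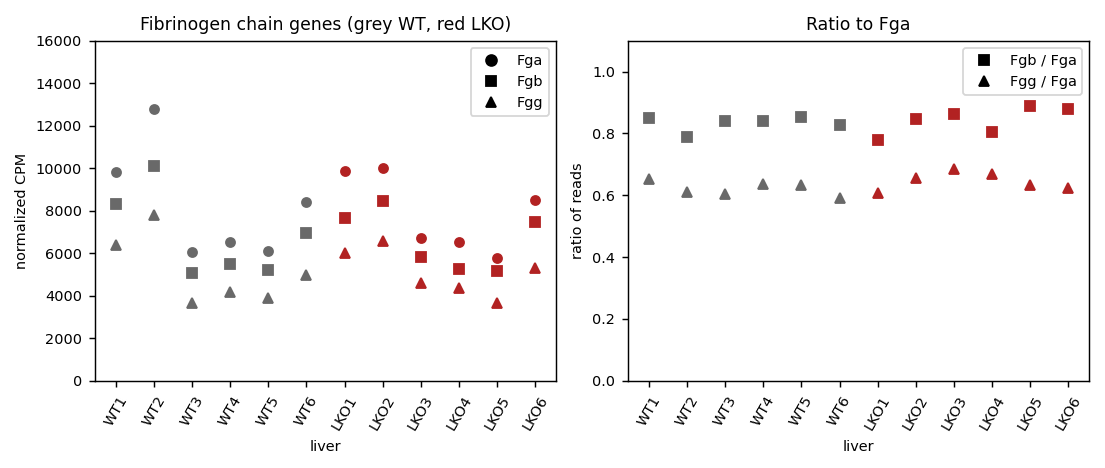
Left, normalized CPM of *Fga*, *Fgb* and *Fgg* (y axis) in each of the 12 livers. Right, reads of *Fgb* and *Fgg* for each read of *Fga* in the same livers. WT replicate 2 has the highest level of each chain gene, and the ratios stay between 0.778 and 0.890 for *Fgb* and between 0.590 and 0.686 for *Fgg*.

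The 6 livers with the highest *Fga* were WT replicates 1, 2 and 6 and LKO replicates 1, 2 and 6. They were picked by *Fga*, so its own place was set in advance. These livers also held the 6 highest values of *Fgb*, *Fgg* and *Mbl1*, which with *Fga* makes 4 of the 38 genes. *Fgb* and *Fgg* kept a nearly constant ratio to *Fga*, as given above, and the share over all genes was not counted. Of the 16 acute-phase genes listed for comparison, 6 had their 6 highest values in these livers too, *Saa1*, *Saa2*, *Hp*, *Hpx*, *Lcn2* and *Serpina3n*. The other 10 did not, among them *Saa3*, *Crp* and *Orm1*. Of these 10, *Apcs*, *Itih3* and *Itih4* did have replicates 1, 2 and 6 highest within each genotype, though not over all 12 livers together. These genes are named after their values were seen. *Saa1* had 101, 343 and 193 normalized CPM in WT replicates 1, 2 and 6 and 221, 237 and 214 in LKO replicates 1, 2 and 6, and between 22.4 and 39.1 in every other liver. *Hp* was between 2643 and 3252 in the 6 livers and between 1887 and 2266 elsewhere. Both genotypes thus held livers of high and of low values, and the 16 acute-phase genes had 0 calls by edgeR, DESeq2 and limma voom. At an unadjusted p under 0.05 in edgeR there were 2, both lower, *Itih3* at −0.40 and *Cp* at −0.16. *Serpina3n* came next at −0.52 (SE 0.308), with 1552 normalized CPM in WT replicate 2 and 428 to 601 in the other WT livers. Its medians were 520 in WT and 462 in LKO livers.

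Other genes followed that order of livers in part. *C4b* had its 3 highest WT and its 3 highest LKO values in replicates 1, 2 and 6. *C3*, *Hc*, *C6*, *C8a* and *Cfi* had their 3 highest WT values in these replicates but not their 3 highest LKO values. In all, 10 of the 38 genes had these 3 WT livers highest among WT, and 5 had the 3 LKO livers highest among LKO. Both counts include *Fga*, by which the livers were picked, and *Fgb* and *Fgg*, which moved with it. The share over all genes was not counted, so these counts cannot show a trait of the 38 genes. The map of deviations shows that LKO replicate 1, with fibrinogen above the mean of the 12 livers, was the lowest of all 12 livers in 22 of the 38 genes, and LKO replicate 5 in 8. The median deviation of the complement genes from their mean over 12 livers was −0.28 on the log2 scale in LKO replicate 1, −0.17 in LKO replicate 5 and 0.04 in LKO replicate 2. Without LKO replicate 1 the median log2 fold change was −0.15 for complement and −0.09 for coagulation, with 7 complement and 6 coagulation genes lower at an unadjusted p under 0.05 in edgeR and 1, *Mbl2*, higher.

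**Figure D4:**
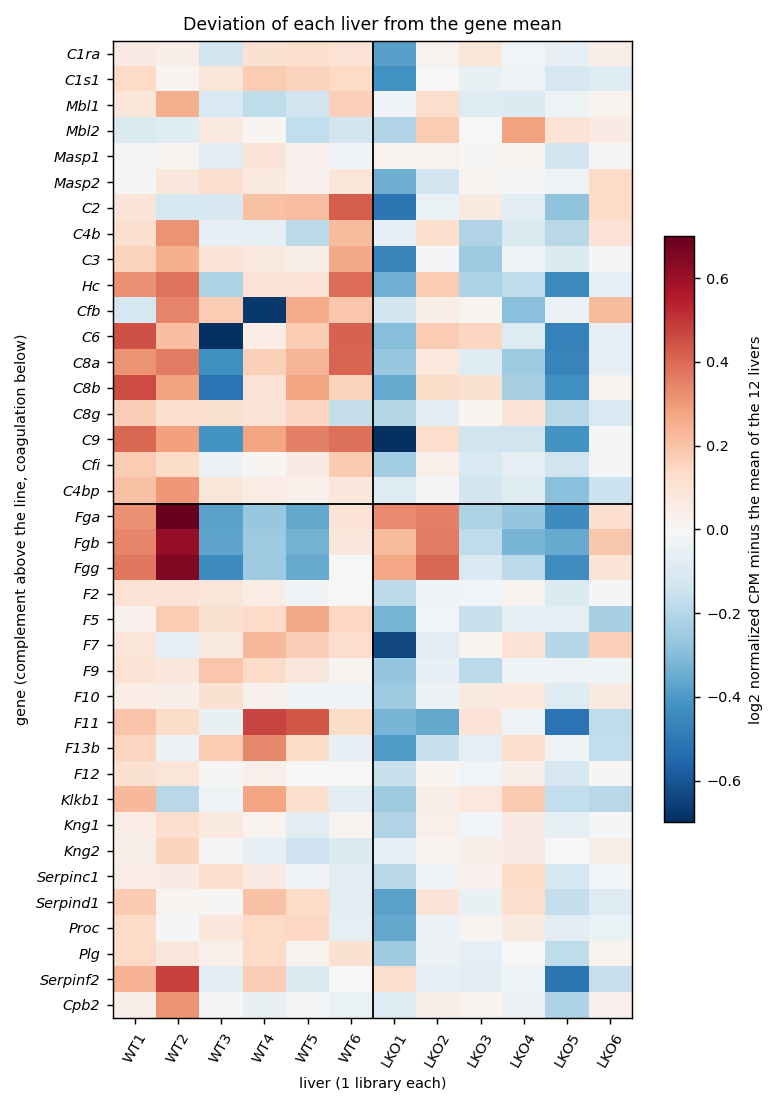
Log2 normalized CPM of each of the 38 genes (rows) in each of the 12 livers (columns), as the deviation from the mean of the 12 livers, red for higher and blue for lower. LKO replicate 1 is blue in most rows but red in the fibrinogen rows, WT replicate 3 is blue in *C6*, *C8a*, *C8b* and *C9*, and the fibrinogen rows divide both genotypes.

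Ratios within a library do not depend on its scaling, and 7 of them were compared. *C1s1* had 1.72 to 2.20 reads for each read of *C1ra*, and the log2 ratio was lower by 0.14 in LKO livers, at 0.99 ± 0.081 in WT and 0.85 ± 0.055 in LKO livers. The exact permutation test over every assignment of 6 livers to a group gave p = 0.00433, or 0.0303 adjusted over the 7 ratios. *Kng2* had more reads for each read of *Kng1* in LKO livers, with a log2 ratio of −2.95 ± 0.056 in WT and −2.85 ± 0.059 in LKO livers (exact permutation p = 0.0108, adjusted 0.0379). Both calls were lost when WT replicate 3, 4, 5 or 6 or LKO replicate 1, 3, 5 or 6 was left out, with adjusted p-values of 0.0505 to 0.0758 by the exact permutation test. The genes of both pairs have close copies, as given above. The ratios *C8b* to *C8a*, *C8g* to *C8a* and *Mbl2* to *Mbl1* did not pass (exact permutation p = 0.154, 0.273 and 0.195).

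Of the pathway genes outside the 38, 1 passed the edgeR test. *C4a*, the paralog of *C4b* that encodes sex-limited protein in mice, fell by 1.44 on the log2 scale (SE 0.249, adjusted p = 0.0168 by edgeR). It had 30.1, 64.1 and 79.6 normalized CPM in WT livers and 11.3, 20.6 and 30.6 in LKO livers, and only the lowest WT and the highest LKO liver overlapped. Without WT replicate 5 its adjusted p by edgeR was 0.0553. *C4b* had 1123, 1308 and 1588 in WT and 1107, 1211 and 1387 in LKO livers, with a log2 fold change of −0.12 (adjusted p = 0.671 by edgeR). The log2 ratio of *C4a* to *C4b* was −4.63 ± 0.495 in WT and −5.93 ± 0.389 in LKO livers (exact permutation p = 0.0022, the smallest that 6 against 6 livers allow), a ratio added after the values were seen.

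Other soluble complement genes went both ways. Of 22 tested, 12 were lower and 10 higher, and at an unadjusted p under 0.05 in edgeR there were 6 in each direction. DESeq2 called 3 of them lower and 1 higher. Properdin (*Cfp*), which leukocytes make to stabilize the alternative convertase, had 9.81, 10.7 and 11.7 in WT and 12.1, 13.6 and 15.01 in LKO livers. Every LKO liver lay above every WT liver for *Cfp*, with a log2 fold change of 0.33 (SE 0.076, adjusted p = 0.0792 by edgeR and 0.0150 by DESeq2).

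The C1q chain genes, which macrophages express and which were named after their values were seen, had log2 fold changes of 0.32 (*C1qa*), 0.37 (*C1qb*) and 0.29 (*C1qc*). Their unadjusted p-values from edgeR were 0.0319, 0.0151 and 0.0291, and the groups overlapped. The Kupffer cell markers given above were also higher in LKO livers, and the part of a larger share of such cells was not tested.

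**Figure D5:**
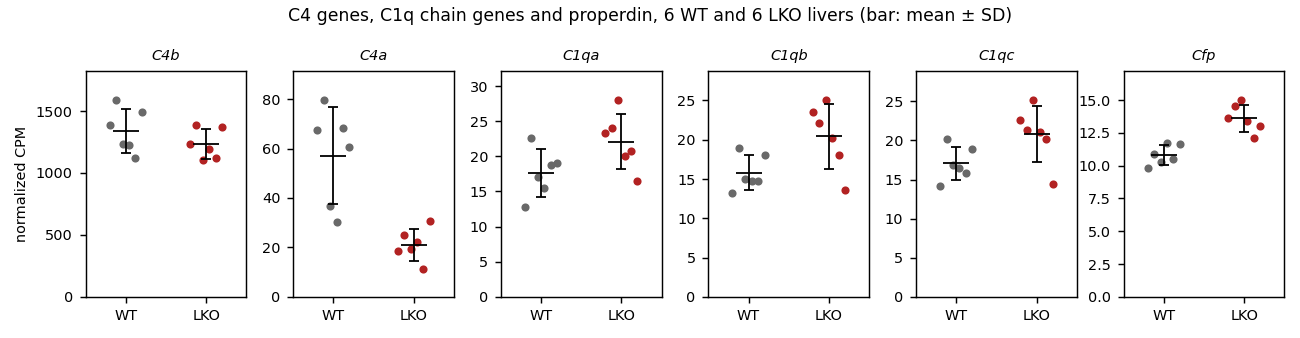
Normalized CPM (y axis, from 0) of *C4b*, *C4a*, the C1q chain genes and *Cfp* in each WT (grey) and LKO (red) liver, with the mean and SD. *C4a* had 57.1 ± 19.5 in WT and 21.1 ± 6.52 in LKO livers, while the LKO points lie higher than most WT points for the C1q genes and higher than all for *Cfp*.

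Of 14 complement receptors and membrane regulators, 10 were higher and 0 passed the edgeR test, with 4 higher and 1 lower at an unadjusted p under 0.05 in edgeR. The receptor of C3a, *C3ar1*, had a log2 fold change of 0.76 at only 16 to 59 reads per liver (adjusted p = 0.0828 by edgeR and 0.0155 by DESeq2). The macrophage receptor *Vsig4*, also among the Kupffer cell markers, had one of 0.44 (adjusted p = 0.120 by edgeR and 0.0277 by DESeq2) and *Cd55* one of 0.30. DESeq2 thus called 2 of the 14, both higher. It also called 3 of the 8 Kupffer cell markers higher, *Vsig4* among them, and their part in these values was not tested. Of 13 other coagulation factors, cofactors and receptors 0 passed in edgeR and in DESeq2, and 1, *Hgfac* at −0.23, had an unadjusted p under 0.05, followed by *Proz* at −0.17 and *Pros1* at 0.12. Of 11 other inhibitors and fibrinolysis genes 0 passed in edgeR, with 3 lower and 1 higher at an unadjusted p under 0.05, the former being the protease inhibitor *Serpine2* at −0.87, *Hrg* at −0.19 and *Pzp* at −0.23. DESeq2 called 1 of the 11, *Serpine2* (adjusted p = 0.0410 by DESeq2).

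Genes for the maturation and export of clotting factors were lower in 8 of 9 cases, and 0 passed the edgeR test while 4 had an unadjusted p under 0.05, all lower. DESeq2 called 2 of the 9, *Lman1* and *Tpst1*, both lower. *Lman1* encodes the cargo receptor that carries factors V and VIII out of the endoplasmic reticulum. It had 321, 356 and 393 normalized CPM in WT livers and 275, 303 and 317 in LKO livers. The groups did not overlap, with a log2 fold change of −0.24 (SE 0.067, adjusted p = 0.148 by edgeR and 0.0194 by DESeq2). *Ggcx*, the vitamin K-dependent carboxylase, had a log2 fold change of −0.19, and *Tpst1*, which sulfates tyrosines of secreted proteins, one of −0.37 (adjusted p = 0.122 by edgeR and 0.0260 by DESeq2).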

How the data were processed

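The authors isolated RNA from whole liver and built polyA libraries (KAPA mRNA HyperPrep) for a HiSeq4000 instrument. Reads were trimmed (Trimmomatic 0.36), aligned (HISAT2 2.1.0) to GRCm38.p6 with the Ensembl 93 annotation, and assigned to genes (HTSeq 0.6.1). What the authors deposited is a table of raw counts, 1 column per liver, not normalized. The strand setting and overlap mode of HTSeq are not given in the sources used here. GENCODE M21, on the same build, named 54165 of the 54232 identifiers.

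A gene was tested (17509 in all) when 6 or more livers had over 2 reads each. Counts were scaled by TMM, and the quasi-likelihood test of edgeR 4.0.16 (R 4.3.3) was run on the genotype alone, with p-values adjusted by Benjamini and Hochberg across the 17509 genes. The F statistic and the fold change gave the SE. The test was first run on simulated counts. Ratios of partner genes were compared with two-sided exact permutation tests (scipy 1.17.1). Normalized CPM per kb used the length of the principal transcript, and shared windows were 50 bases long. The alternatives were other scalings (RLE, upper quartile, TMM without the 20 most abundant genes), other filters (none, filterByExpr, 10 or more reads in every liver), other tests (limma 3.58.1 voom, which the study used, and DESeq2 1.42.0), a block for the replicate number, and fits without 1 of the 12 livers.

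The 38 genes and the lists were chosen with earlier results of these data known. Every one of the 38 genes is named. Values by liver are given for those with an unadjusted p under 0.05, for the largest change in each role, and for *C3*, *Hc*, *Fga*, *Fgb*, *Fgg*, *F2*, *Serpinc1* and *Plg*. Of other genes, those of the lists with an adjusted p under 0.05 or up to 3 per list with the lowest p are named, and any further one is marked as named after its values were seen. The libraries come from separate mice. Reads carry no molecular identifiers, so depth covers counting error only. Some genes of this rule are not reported here.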

Additional observations from a re-analysis of the deposited data

Results flagged for a closer look

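In 8 of the 76 groups of 6 livers (38 genes in 2 genotypes), the lowest or highest liver stood apart from its group by Dixon's ratio, the gap to the nearest other liver divided by the range of the group, at the 95% level. Chance flags about 1 in 20 groups, or 3.8 here, and genes that share a liver are not independent.

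WT replicate 3 was the low liver for *C9* (446 normalized CPM against 722 in the next WT liver, ratio 0.809), for *C8a* (637 against 963, ratio 0.650) and for *C1ra* (165 against 187, ratio 0.677). LKO replicate 1 was the low liver for *C1s1* (256 against 316, ratio 0.700) and for *C1ra* (139 against 174, ratio 0.658). LKO replicate 5 was low for *Masp1* (208 against 226, ratio 0.763), and WT replicate 6 for *C8g* (248 against 298, ratio 0.754). The 1 liver that stood above its group was WT replicate 2 for *Cpb2*, with 427 against 354 and a ratio of 0.752.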

How the results depend on the processing

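Over all alternatives 16 or 17 of the 18 complement genes and 16 to 19 of the 20 coagulation genes were lower. The median log2 fold change ran from −0.22 to −0.15 for complement and from −0.14 to −0.09 for coagulation, while that of all genes stayed between −0.0036 and 0.018. DESeq2 called 350 genes in all, 3 complement and 3 coagulation genes among them, against 75, 0 and 0 by edgeR. Without a filter there were 114 calls. Over the fits that each left out a liver there were 38 (without WT replicate 5) to 132 (without WT replicate 3) calls, with 0 to 1 in complement and 0 in coagulation. Of 2 ratios called, 0 to 2 were called with a liver left out, and 1 with rank sums. Sign flips over the pairs called 0, which says nothing, since with a smallest p of 0.0312 a call needs at least 5 of the 7 ratios at that value.

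Signs turned for genes near 0: *Masp1* (0.00036) and *Fgg* (0.0011) with upper-quartile scaling, and *Fgg* with limma voom (0.013). With a liver left out the log2 fold change ran from −0.075 to 0.012 for *Mbl1*, from −0.034 to 0.0073 for *Masp1*, from −0.14 to 0.10 for *Fga*, from −0.13 to 0.093 for *Fgb* and from −0.10 to 0.14 for *Fgg*. The causes were not tested.

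The labels give no pairing of livers by replicate number. The correlations of same-numbered deviations were −0.066 to 0.135, with 4 of 6 over 0.1. Of the WT livers, 3 of 6 correlated best with the LKO liver of their own number. Whether livers of the same number share a factor was not tested. With the number as a block edgeR called 97 genes and 0 of the 38, and *Fgg* had a log2 fold change of 0.012. The SE under the block was 0.082 for *Fga*, 0.080 for *Fgb* and 0.086 for *Fgg*, against 0.195, 0.182 and 0.190 without it.

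Of the 38 genes *Cfb* had the fewest reads (35 to 86 per liver), and the part of its overlap with *Gm20547* in that number was not tested. The spread between livers, not depth, sets the SE of the abundant fibrinogen genes, where the lowest count was 57700 reads in a liver.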

Other observations

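A single liver set the value of *C1rb*, the close copy of *C1ra*, which was named after its values were seen. It had 119 reads in LKO replicate 5 and 2 to 9 reads in each of the other livers. No explanation was tested.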
